A study of Mus musculus with 6 samples.

Results

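The genes described here are 10 genes of MHC class I antigen presentation: B2m, H2-K1, H2-D1, Tap1, Tap2, Tapbp, Nlrc5, Erap1, Psmb8 and Psmb9. They were taken by gene symbol from 24956 gene rows of a count table, and all 10 were found. Their RNA was measured by bulk sequencing of microglia (brain macrophages) that were isolated by cell sorting from 3XTg-AD mice, a model that carries human APP and MAPT transgenes under a neuronal promoter. The 3 isotype libraries came from mice aged 7 months that were given an isotype control antibody, and the 3 anti-NK1.1 libraries from mice of the same strain and age given an antibody that depletes natural killer (NK) cells. Each mouse received 25 µg every 4 days for 4 weeks. Both groups carry the transgenes, and no wild-type mice are among these samples. Whether each library is a single animal or pooled animals is not given in the labels, and p-values measure the spread between these libraries, which may be technical. Libraries are named by group and number, such as anti-NK1.1 2.

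MHC class I molecules show fragments of a cell's own proteins to CD8 T cells and carry the self signal that inhibits NK cells. The proteasome cuts cytosolic proteins, and under interferon gamma its catalytic subunits are exchanged for those of the immunoproteasome. TAP1 and TAP2 pump the peptides into the endoplasmic reticulum, ERAP1 trims them, and tapasin (Tapbp) helps load them onto a heavy chain (H2-K1 or H2-D1) paired with beta-2-microglobulin (B2m). NLRC5 is the transactivator of class I genes: it has no DNA-binding domain of its own and acts through factors bound to the X and Y boxes of their promoters. Microglia carry little class I at rest and raise it in inflammation and in amyloid disease models.

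The promoters of the 3 genes that encode the class I molecule itself are shown because they hold, in the same order and spacing, the boxes through which NLRC5 acts. A search of both strands of the 250 bases before each RefSeq gene start (GRCm38.p6) used TGACG for the X2 box and CCAAT for the Y box, which reads ATTGG on the other strand. In B2m, H2-K1 and H2-D1 the X2 site was followed by exactly 20 bases and then ATTGG, a pair that occurred in 0.0913% of 32851 promoter windows. No other spacing or order of the pair was searched. The form searched is the one these 3 genes share, so its share of windows is no test. X2 alone was found in 17.8% of windows and Y alone in 33.9%. In the sequences below, read 5′ to 3′ on the strand of the gene, capitals mark X2 and Y.
B2m: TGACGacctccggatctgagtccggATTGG
H2-K1: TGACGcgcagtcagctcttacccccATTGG
H2-D1: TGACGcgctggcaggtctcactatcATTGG
They lie at chr2:122147609-122147638 (plus strand), chr17:34000359-34000388 (minus strand) and chr17:35262993-35263022 (plus strand), and begin 78, 41 and 101 bases before the RefSeq start. For H2-K1 the first of its RefSeq starts was taken, and the H2-D1 element lies inside the first exon of an H2-D1 transcript that GENCODE starts further upstream. H2-K1 and H2-D1 shared 23 of 30 bases here, and B2m shared 13 with H2-K1 and 12 with H2-D1, so outside the boxes the B2m element has little in common with the heavy chains. The spaced pair was found in 26 genes, among them H2-M3, a heavy chain that presents formylated peptides. Of 15 class I or class I-like heavy chain genes with a promoter window, 3 had it.

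Upstream of this pair the same 3 promoters hold a motif of NF-kB (GGG, 2 free bases, TT, 1 free base, CC) next to a motif of interferon regulatory factors (AANNGAAA, a form chosen after these sequences were seen), shown because both factors drive class I in inflammation. The first was found in 4.11% of windows and the second in 21.3%. Capitals mark both motifs, and the sequences are again read on the strand of the gene.
B2m: AACTGAAAatgGGAAAGTCCC
H2-K1: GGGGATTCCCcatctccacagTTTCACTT
H2-D1: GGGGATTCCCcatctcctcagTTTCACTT
These span chr2:122147550-122147570, chr17:34000430-34000458 and chr17:35262923-35262951. H2-K1 and H2-D1 were identical at 28 of 29 bases, while B2m has the motifs in the opposite order. Promoter windows were found for 8 of the 10 genes and not for Tap2 and Nlrc5. Tap1 and Psmb9, which face away from each other at a shared promoter, had an X2 and a Y match each but not the spaced pair, Tapbp had Y matches alone, and Psmb8 and Erap1 had none of the 4 motifs. A match is a description of letters and shows no binding.

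Counts were scaled for library depth with TMM factors into CPM, the usual depth-scaled count unit, and tested with edgeR's quasi-likelihood test over 14520 genes. Gene totals were 26893620 to 36098252 counts per library. All 8 of 8 microglial markers were present in every library, and they summed to 27748 to 32062 CPM in isotype and 23896 to 32149 CPM in anti-NK1.1 libraries. The 8 neutrophil markers summed to 68754 to 96517 CPM in isotype and 30637 to 135003 CPM in anti-NK1.1 libraries, above the microglial sum in every library except anti-NK1.1 2. Klrb1c, the gene of NK1.1, had 50, 45 and 80 counts in the isotype and 0, 0 and 13 in the depleted ones. No gene passed an adjusted p of 0.05 with edgeR (0% of tested genes). DESeq2 called 83 genes (0.331% higher and 0.241% lower) and limma-voom with sample weights 4 (0.0275%, all higher). None of the 10 genes was among them, but DESeq2 gave no p-value for Erap1 and so could not call it. Long transcripts were scarce in anti-NK1.1 1 and 3: genes of at least 5000 nt and at least 5 CPM had a median log2 value against the isotype mean of -0.66 and -0.80 in these libraries and of 0.01 in anti-NK1.1 2.

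The levels of the 10 genes spanned more than 4 orders of magnitude. Per kilobase of the longest transcript, B2m stood at 4498 ± 421 CPM in isotype libraries (SD, n = 3), ahead of the heavy chains H2-K1 at 351 ± 31.8 and H2-D1 at 224 ± 32.6 CPM per kb. The immunoproteasome subunit Psmb8 (164 ± 2.42) and Tapbp (151 ± 24.1) came next and overlapped each other, followed by Psmb9 at 89.6 ± 15 CPM per kb. The transporter chains Tap2 (27.3 ± 9.24) and Tap1 (21.7 ± 2.92) also overlapped, and Erap1 at 8.57 ± 0.58 and Nlrc5 at 0.238 ± 0.0798 CPM per kb closed the order. The order of the means was the same in anti-NK1.1 libraries. There H2-K1 (515 ± 142) and H2-D1 (336 ± 142) overlapped, while Tap2 (35.9 ± 3.20) lay above Tap1 (22.8 ± 0.762) in every library.

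**Figure D1:**
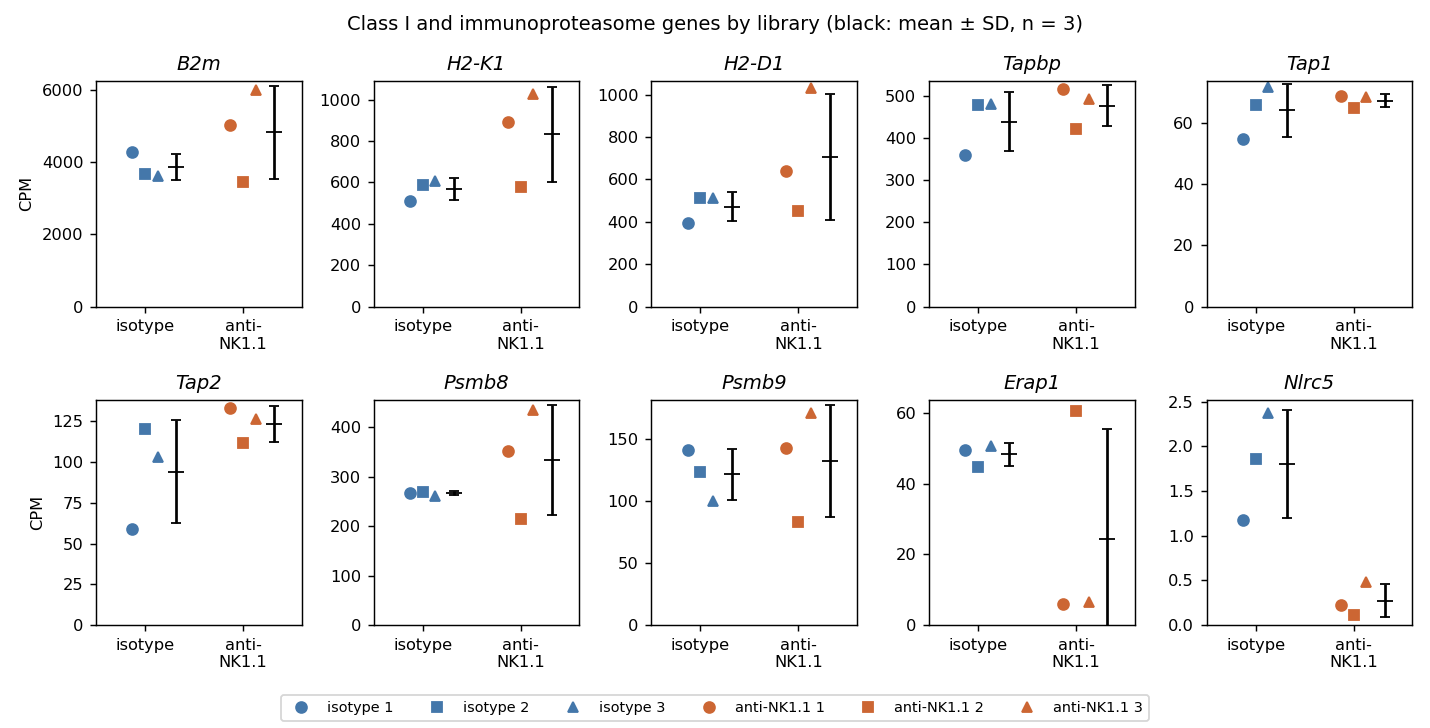
CPM of each gene in every library (y axis from 0, one panel per gene), with isotype libraries in blue and anti-NK1.1 libraries in orange, symbols for replicate numbers and black bars for the mean ± SD of 3 libraries (the bar of Erap1 is cut at 0). B2m, H2-K1, H2-D1 and Psmb8 are high in anti-NK1.1 1 and 3 and not in anti-NK1.1 2, Erap1 is low in the same 2 libraries, and Nlrc5 is low in all 3.

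Of the 10 genes, 8 had a log2 change above 0 and 2 below, with a median of 0.22. Among all tested genes 50.9% were above 0 and the median was 0.01. The edgeR adjusted p-values of the 10 lay between 0.743 and 0.951. With anti-NK1.1 2 as the only depleted library, 6 of the 10 genes were below 0, as were 51.1% of all genes, and the same number was below 0 after correction for transcript length and GC content, where 51.3% of genes were. In bulk RNA a change in the number of cells of a type and a change in RNA per cell cannot be told apart.

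The light and heavy chains were abundant in all 6 libraries and highest in anti-NK1.1 1 and 3. B2m, the invariant light chain (chromosome 2, 122147686 to 122153083, GRCm38), measured 4285, 3686 and 3634 CPM in isotype libraries 1 to 3 and 5024, 3459 and 6019 CPM in anti-NK1.1 libraries 1 to 3. Libraries 1 and 3 of the depleted mice lay above every isotype library and library 2 below every isotype library. The log2 change of B2m was 0.32 ± 0.23 (SE), 1.25 times the isotype level, with an edgeR adjusted p of 0.769. The longest B2m transcript has 860 nt, and genes under 1500 nt as a class had a median log2 value of 0.39 and 0.425 in anti-NK1.1 1 and 3 and of -0.10 in anti-NK1.1 2, against 0.38, 0.64 and -0.16 for B2m in libraries 1, 3 and 2.

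H2-K1, a classical heavy chain (chromosome 17, 33996017 to 34000347, minus strand), measured 510, 589 and 606 CPM in isotype and 893, 580 and 1027 CPM in anti-NK1.1 libraries. Here too libraries anti-NK1.1 1 and 3 stood above all controls, whereas anti-NK1.1 2 lay inside the isotype range. The log2 change was 0.55 ± 0.25, 1.47 times the isotype level, with an unadjusted p of 0.0492 and an adjusted p of 0.743 by edgeR. H2-K1 was the only gene of the 10 higher at an unadjusted p under 0.05, as were 2.74% of all tested genes.

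H2-D1, the other classical heavy chain (chromosome 17, 35262730 to 35267499), measured 392, 510 and 511 CPM in isotype and 639, 449 and 1032 CPM in anti-NK1.1 libraries. Its highest value, in anti-NK1.1 3, was above 2 times that of any isotype library, and anti-NK1.1 2 again lay within the controls. The log2 change was 0.59 ± 0.30 (edgeR adjusted p = 0.743). H2-K1 and H2-D1 transcripts have 1619 and 2102 nt, and genes of 1500 to 3000 nt had medians of 0.03, -0.05 and 0.11 in anti-NK1.1 libraries 1 to 3, against 0.65, 0.03 and 0.85 for H2-K1 and 0.44, -0.07 and 1.13 for H2-D1. Class I heavy chains share sequence: 7.10% of the 75-base windows of the longest H2-D1 transcript and 1.55% of those of H2-K1 also occur in transcripts of other genes, H2-Q1 and H2-D1 being the most frequent partners. Counts of the heavy chains are uncertain to that extent, and B2m shares no such window.

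Without anti-NK1.1 2, the log2 changes of B2m, H2-K1 and H2-D1 were 0.51 ± 0.17, 0.76 ± 0.19 and 0.83 ± 0.25, with edgeR adjusted p-values of 0.200, 0.108 and 0.164. In that fit 4 of the 10 genes, these 3 and Psmb8, were higher at an unadjusted p under 0.05, as were 4.8% of all genes, and none was called higher, where 0.0801% of genes were. With anti-NK1.1 2 as the only depleted library, which is then assumed to vary like the controls, they were -0.15 ± 0.16, 0.03 ± 0.22 and -0.06 ± 0.25. The higher group means of all 3 genes thus rest on the pair of depleted libraries in which long transcripts were scarce. Once transcript length and GC content were corrected for in every library, the values were 0.45 ± 0.24 for B2m, 0.14 ± 0.20 for H2-K1 and 0.29 ± 0.25 for H2-D1.

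The ratio of the heavy chains to the light chain overlapped between the groups. Counts of H2-K1 and H2-D1 together were 0.210, 0.298 and 0.307 times those of B2m in isotype libraries and 0.305, 0.297 and 0.342 times in anti-NK1.1 libraries. Isotype 1 stood lowest, and the other 5 libraries lay close together. The mean log2 ratio differed by 0.23 (exact two-sided permutation test, p = 0.5, adjusted p = 0.625 over 5 ratios), and such a test of 3 against 3 libraries cannot go below 0.1.

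None of the transporter and loading genes passed the test. Tap1 (chromosome 17, 34187553 to 34197225) measured 54.8, 66.0 and 71.8 CPM in isotype and 68.7, 64.8 and 68.6 CPM in anti-NK1.1 libraries, so that every depleted library lay inside the control range. Its log2 change was 0.07 ± 0.23 (edgeR adjusted p = 0.951). Tap2, the partner chain (chromosome 17, 34203527 to 34216321), measured 58.7, 120 and 103 CPM in isotype and 133, 111 and 126 CPM in anti-NK1.1 libraries. The wide isotype range of Tap2 came from isotype 1, its lowest library, and the log2 change was 0.39 ± 0.29 (edgeR adjusted p = 0.769), or 0.16 without isotype 1. Tapbp, tapasin (chromosome 17, 33915899 to 33929292), measured 358, 477 and 481 CPM in isotype and 517, 421 and 493 CPM in anti-NK1.1 libraries. Its log2 change was 0.12 ± 0.21 (edgeR adjusted p = 0.897). For Tapbp isotype 1 was lowest as well, and anti-NK1.1 2 lay among the controls.

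Exons of Tap1 and Psmb9 overlap on opposite strands over a stretch that holds 4.79% of the Tap1 windows and 10.8% of the Psmb9 windows. Other annotated genes overlap exons of Tap2 (8.97% of windows shared), of Tapbp (17.5%) and of Erap1 (13.6%, all with Cast). The library kits do not mark the strand, so reads from these stretches cannot be assigned to either gene.

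The immunoproteasome subunits had the same order of depleted libraries as B2m. Psmb8 encodes the chymotrypsin-like subunit LMP7 (chromosome 17, 34197721 to 34201454). It was even among the controls, with 268, 269 and 262 CPM, and spread in the depleted mice, with 352, 215 and 434 CPM. Anti-NK1.1 1 and 3 lay above and anti-NK1.1 2 below all controls, and the log2 change was 0.33 ± 0.27 (edgeR adjusted p = 0.784). Psmb9, which encodes LMP2 (chromosome 17, 34181987 to 34187764, minus strand), measured 141, 123 and 100 CPM in isotype and 142, 82.9 and 171 CPM in anti-NK1.1 libraries. Its log2 change was 0.12 ± 0.29 (edgeR adjusted p = 0.928). In anti-NK1.1 2 alone Psmb8 was at -0.30 ± 0.23 and Psmb9 at -0.54 ± 0.31, below 0 instead of above.

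The third inducible subunit, Psmb10 (MECL-1), showed the same order of libraries, with 128, 135 and 116 CPM in isotype and 201, 109 and 209 CPM in anti-NK1.1 libraries. Its log2 change was 0.45 ± 0.28. The constitutive subunits that these 3 replace, Psmb5, Psmb6 and Psmb7, had log2 changes of 0.18 ± 0.33, 0.21 ± 0.26 and 0.07 ± 0.28. The proteasome activator chains Psme1 and Psme2 were at 0.27 ± 0.22 and 0.24 ± 0.27. None of these 6 genes had groups that did not overlap.

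Ratios of an inducible subunit to the constitutive subunit it replaces do not depend on library scaling. Psmb8 counts were 5.26, 4.36 and 7.00 times those of Psmb5 in isotype libraries and 4.42, 4.14 and 11.4 times in anti-NK1.1 libraries. The difference in mean log2 ratio was 0.13 (exact two-sided permutation test, p = 0.9) and changed sign without anti-NK1.1 3 (-0.35) and without isotype 2 (-0.03). Psmb9 counts were 0.531, 0.511 and 0.575 times those of Psmb6 in isotype and 0.491, 0.443 and 0.554 times in anti-NK1.1 libraries. For Psmb9 the mean log2 ratio was lower by a small amount, -0.12 (exact permutation test, p = 0.4, adjusted p = 0.625). Psmb10 counts were 1.19, 1.33 and 1.66 times those of Psmb7 in isotype and 1.79, 1.54 and 1.88 times in anti-NK1.1 libraries. The log2 difference for Psmb10 was 0.33 (exact permutation test, p = 0.2, adjusted p = 0.5), and 1 depleted library lay within the control range. No ratio of the proteasome thus separated the groups.

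The ratio of class II to class I chains did separate the groups. Counts of the class II chains H2-Aa, H2-Ab1 and H2-Eb1 together were 2.81, 2.20 and 1.78 times those of H2-K1 and H2-D1 in isotype libraries and 5.52, 4.50 and 3.20 times in anti-NK1.1 libraries. Every depleted library, anti-NK1.1 2 included, lay above every control. The log2 difference was 0.95, a ratio 1.93 times as high (exact two-sided permutation test, p = 0.1, the smallest this design allows, adjusted p = 0.5). H2-Aa, H2-Ab1 and H2-Eb1 stood at 2.82, 2.9 and 2.74 times the isotype level (edgeR adjusted p = 0.428, 0.366 and 0.403). The group means of H2-K1 and H2-D1 were also higher, by less. H2-Aa and H2-Ab1 transcripts have 1128 and 1212 nt, and genes under 1500 nt had medians of 0.39, -0.10 and 0.425 in anti-NK1.1 libraries 1 to 3. H2-Eb1 (1669 nt) and the heavy chains fall among genes of 1500 to 3000 nt, with medians of 0.03, -0.05 and 0.11. The part of transcript length in this ratio was not tested. Markers of B cells, which carry class II, summed to 48.8 to 86.9 CPM in isotype and 87.4 to 124 CPM in depleted libraries. Those of dendritic cells were also higher. Monocyte sums were 4176 to 4749 CPM in isotype and 1339 to 5452 CPM in depleted libraries. Border macrophage sums were 182 to 345 and 146 to 246 CPM, and both sums overlapped between the groups. By single gene, 5 of 6 monocyte markers were lower, 3 of them with groups that did not overlap. Of 7 border macrophage markers 5 were higher, and groups did not overlap for 3 higher and 1 lower. Among all tested genes 7.73% were higher and 7.59% lower without overlap. The part of these cells in this ratio was not tested.

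**Figure D2:**
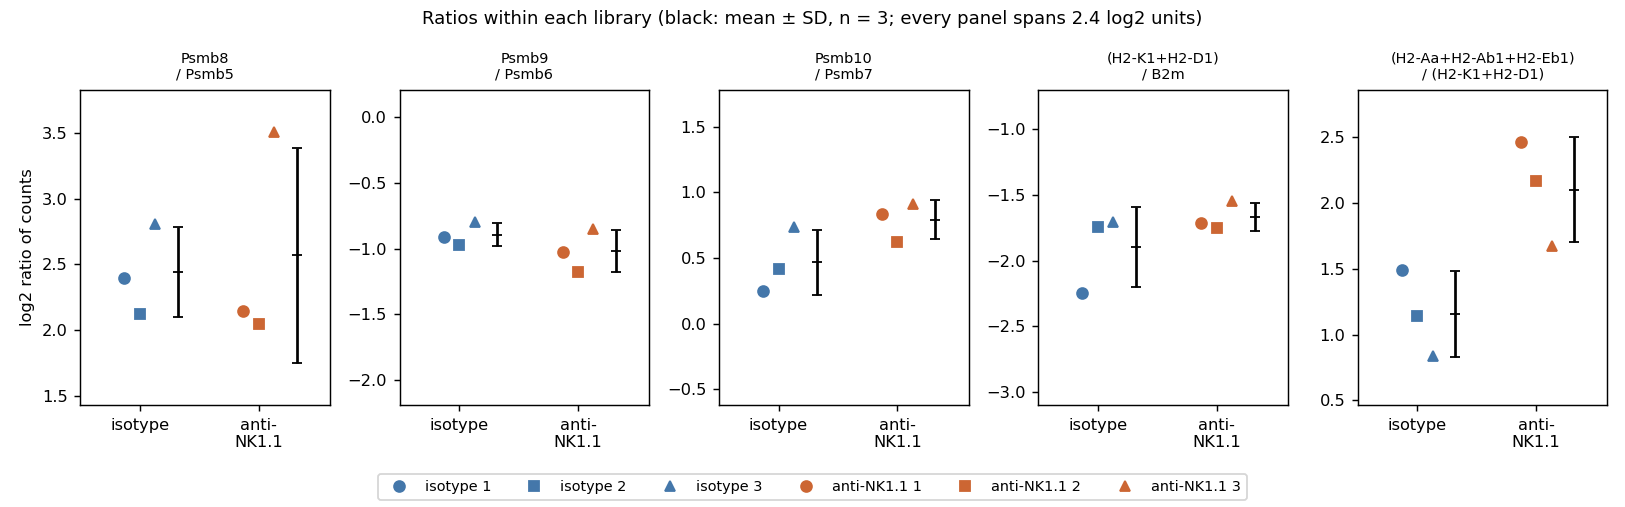
Log2 ratio of counts within each library (y axis, every panel spanning the same range) for 3 pairs of inducible and constitutive proteasome subunits, for class I heavy chains over B2m and for class II over class I chains. Isotype libraries are blue, anti-NK1.1 libraries orange, and black bars give the mean ± SD of 3 libraries. Groups overlap in the first 4 panels and lie apart in the last.

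Erap1 differed by library more than any other of the abundant genes. It encodes the aminopeptidase that trims peptides in the endoplasmic reticulum (chromosome 13, 74639568 to 74693201) and measured 49.6, 44.7 and 50.9 CPM in isotype and 5.87, 60.6 and 6.62 CPM in anti-NK1.1 libraries. Anti-NK1.1 1 and 3 lay far below every control, and anti-NK1.1 2 lay above every control. With all libraries the log2 change was -0.99 ± 0.78 (edgeR adjusted p = 0.781). Without anti-NK1.1 2 it was -2.96 ± 0.33 and passed (edgeR adjusted p = 0.0405, where 0.781% of 14990 genes were called lower), and with anti-NK1.1 2 as the only depleted library it was 0.33 ± 0.32. The longest Erap1 transcript has 5644 nt, against a median of 3029 nt over the tested genes, and 37.2% and 42.1% of genes of at least 5000 nt also had under 50% of their isotype mean in anti-NK1.1 1 and 3, compared with 5.59% in anti-NK1.1 2. The part of transcript length in the Erap1 values was not tested beyond the correction for length and GC content, which gave -0.87 ± 0.56.

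Among 8 genes of the pathway list grouped as peptidases, 7 had a log2 change below 0, while 50.9% of all tested genes were above 0. Ide (insulin-degrading enzyme) measured 22.8, 25.3 and 29.8 CPM in isotype and 4.51, 36.3 and 5.34 CPM in anti-NK1.1 libraries. Tpp2 (tripeptidyl peptidase) measured 48.7, 27.0 and 57.3 CPM in isotype and 7.71, 47.2 and 9.21 CPM in anti-NK1.1 libraries. Both were chosen for naming after their values were seen and had the library pattern of Erap1. Without anti-NK1.1 2 both passed (edgeR adjusted p = 0.0476 each, where 0.781% of 14990 genes were called lower). Because of that choice this fit is no separate evidence. With the correction for length and GC content Ide was at -0.61 ± 0.52 and Tpp2 at -0.77 ± 0.45. Their longest transcripts have 4962 and 4649 nt.

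Nlrc5, the class I transactivator (chromosome 8, 94434356 to 94527272), was the only gene of the 10 whose groups did not overlap, and it was lower in every depleted library. It had 42, 60 and 91 counts in isotype libraries and 6, 4 and 12 counts in anti-NK1.1 libraries, which is 1.17, 1.86 and 2.38 CPM against 0.226, 0.117 and 0.478 CPM. The lowest control stood above 2 times the highest depleted library, at a level close to the limit of detection. Among all tested genes 7.59% had groups that did not overlap with anti-NK1.1 lower. The edgeR log2 change was -2.71 ± 1.23 with an unadjusted p of 0.0534 and an adjusted p of 0.743.

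Counts of each group were summed and divided by its effective library sizes. Nlrc5 was then 7.09 times as high in isotype libraries (95% exact interval 4.55 to 11.6). Such intervals cover counting error only and leave out the spread between libraries. Reads without molecular identifiers are not independent molecules, so the intervals may be too narrow even for counting error. The ratio was 5.21 (3.21 to 8.97) against anti-NK1.1 1 and 3 and 15.5 (5.97 to 57.6) against anti-NK1.1 2 alone. The longest Nlrc5 transcript has 7578 nt, and the part of transcript length in its values was not tested beyond the correction for length and GC content, which gave -2.53 ± 1.27. Over the 16 alternative fits in which the gene could be tested, its log2 change stayed between -3.90 and -2.35. Nlrc5 is known to be abundant in lymphocytes, and NK cell markers, listed further on, were also lower in every depleted library while T cell markers were higher. The part of these cells in the Nlrc5 values was not tested. An annotated antisense gene, 9330175E14Rik, overlaps an Nlrc5 exon, and reads of the pair cannot be separated there.

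**Figure D3:**
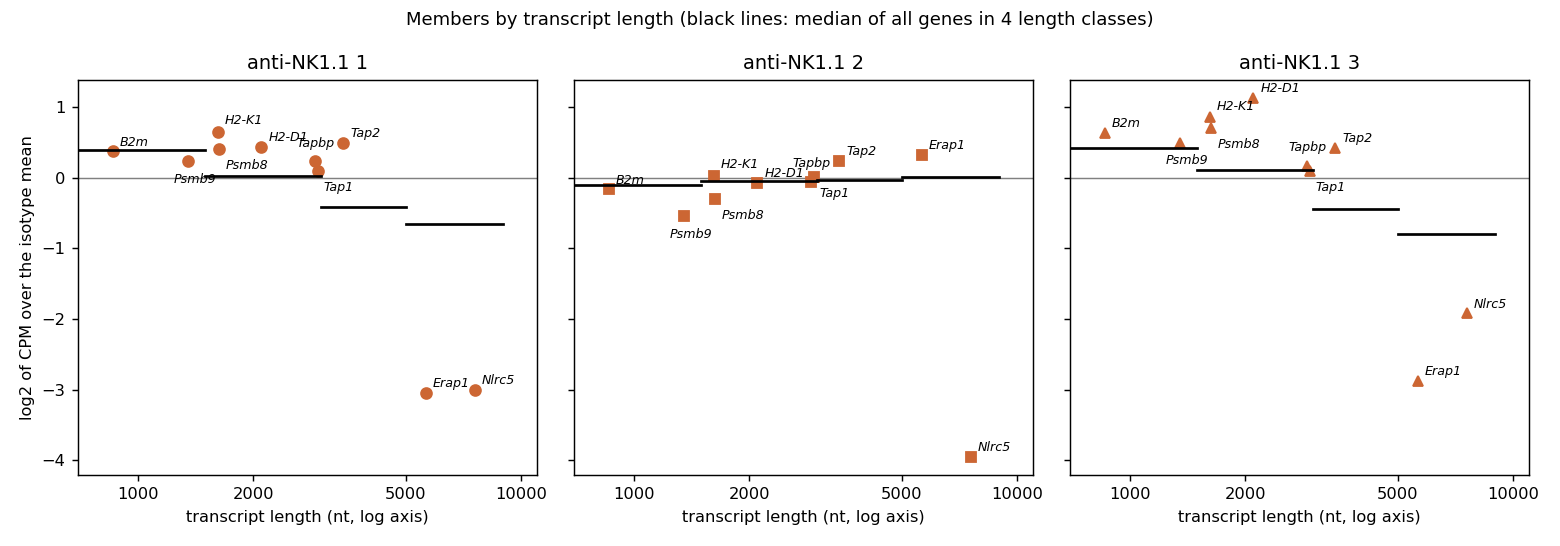
Log2 of CPM over the isotype mean (y axis) against the length of the longest transcript (x axis, log scale) for the 10 genes in each anti-NK1.1 library, with black lines for the median of all genes of at least 5 CPM in 4 length classes. In anti-NK1.1 1 and 3 the black lines step down with length and Erap1 and Nlrc5 lie below them, while in anti-NK1.1 2 the lines are near 0 and Nlrc5 alone lies far below.

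The order of the depleted libraries differed among the 10 genes. B2m, H2-K1, H2-D1, Tap2, Tapbp, Psmb8 and Psmb9, 7 of 10, were above every control in both anti-NK1.1 1 and 3, as were 18.4% of all tested genes, although Psmb9 in anti-NK1.1 1 exceeded the highest control by less than 2 CPM. Erap1 and Nlrc5 were below every control in both, as were 20.3% of tested genes, and Tap1 lay within the control range in all 3 depleted libraries. In anti-NK1.1 2, 4 of the 10 (B2m, Psmb8, Psmb9 and Nlrc5) were below every control, where 22.5% of tested genes were, and Erap1 alone was above. Across all 6 libraries Psmb8 had a Pearson r of 0.95 with the mean log2 level of B2m, H2-K1 and H2-D1, Psmb9 of 0.71 and Tapbp of 0.63. Erap1 had -0.93 and Nlrc5 -0.26. These correlations describe 6 libraries that also share depth and length bias.

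Likeness to the mean of B2m, H2-K1 and H2-D1 over the 6 libraries was ranked among 3082 genes with a mean of at least 50 CPM outside the 10. Predicted loci, pseudogenes and genes not annotated as protein-coding or long non-coding RNA were then passed over. The 5 highest that remained were Tspan13, Rbm42, Slc48a1, Derl2 and Smim3, with r between 0.97 and 0.99. Tspan13 measured 260, 272 and 275 CPM in isotype and 329, 276 and 382 CPM in anti-NK1.1 libraries. Derl2, a component of the machinery that exports misfolded proteins from the endoplasmic reticulum, measured 101, 111 and 108 CPM in isotype and 168, 103 and 186 CPM in anti-NK1.1 libraries. In both, anti-NK1.1 2 was close to the controls.

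Of 48 other genes of the class I pathway, 42 were tested, 23 with a log2 change above 0 and 19 below, with a median of 0.05, and none passed. Irf1 alone had an unadjusted p under 0.05 (0.0371, edgeR adjusted p = 0.740), among 3.8% of tested genes that were lower at that level. Irf1 is a transcription factor that drives class I and immunoproteasome genes downstream of interferon gamma, and it measured 120, 97.0 and 133 CPM in isotype and 86.7, 78.3 and 75.1 CPM in anti-NK1.1 libraries. All 3 depleted libraries lay below all controls, with a log2 change of -0.54 ± 0.22, and with anti-NK1.1 2 as the only depleted library it was -0.57 ± 0.31. Rfx5, the subunit that binds the X box, was at -1.27 ± 0.60 with overlapping groups.

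Rfx5 measured 5.36, 11.8 and 22.5 CPM in isotype and 7.26, 5.08 and 4.15 CPM in anti-NK1.1 libraries, so its mean among the controls rested on isotype 2 and 3. The other subunits of its complex, Rfxap and Rfxank, named here after their values were seen like the receptor chains that follow, were at 0.24 ± 0.29 and 0.05 ± 0.29. The receptor chains Ifngr1 and Ifngr2 were at -0.02 ± 0.19 and 0.15 ± 0.20. Genes of this group of signalling and transactivator genes were lower in 5 of 8 cases.

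Other class I and class I-like chains were mostly higher, 10 of 13 tested. Groups did not overlap for 3 genes that were higher and 3 that were lower among the 42, where 7.73% and 7.59% of all tested genes did so. The higher ones were H2-T23 (Qa-1, the ligand of the inhibitory NK receptor CD94/NKG2A), H2-M3 and Hfe, and the lower ones H2-T24, Irf1 and the peptidase Blmh. H2-T23 measured 183, 207 and 180 CPM in isotype and 278, 212 and 239 CPM in anti-NK1.1 libraries (log2 change 0.35 ± 0.21). H2-M3, whose promoter holds the spaced X2 and Y pair, measured 49.2, 48.0 and 55.1 CPM in isotype and 65.5, 59.3 and 80.4 CPM in anti-NK1.1 libraries (log2 change 0.43 ± 0.24). Both lay above the controls in every depleted library, by the smallest margin in anti-NK1.1 2. Fcgrt, the Fc receptor that pairs with B2m, was at 0.53 ± 0.24 with overlapping groups. Hfe, H2-T24 and Blmh had log2 changes of 0.45 ± 0.22, -0.64 ± 0.35 and -0.38 ± 0.26 and were named after their values were seen. With the correction for length and GC content H2-T23 was at 0.08 ± 0.19, H2-M3 at 0.25 ± 0.24 and Fcgrt at 0.19 ± 0.21. Hfe was then at 0.74 ± 0.30, H2-T24 at -0.62 ± 0.34 and Blmh at -0.39 ± 0.23.

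The peptide-loading chaperones lay near or below 0. Calreticulin (Calr) was at 0.01 ± 0.19, calnexin (Canx) at -0.34 ± 0.29, the disulfide isomerase Pdia3 at -0.04 ± 0.20 and the tapasin-related Tapbpl at -0.17 ± 0.30. None of these 4 passed the test, and all had overlapping groups.

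**Figure D4:**
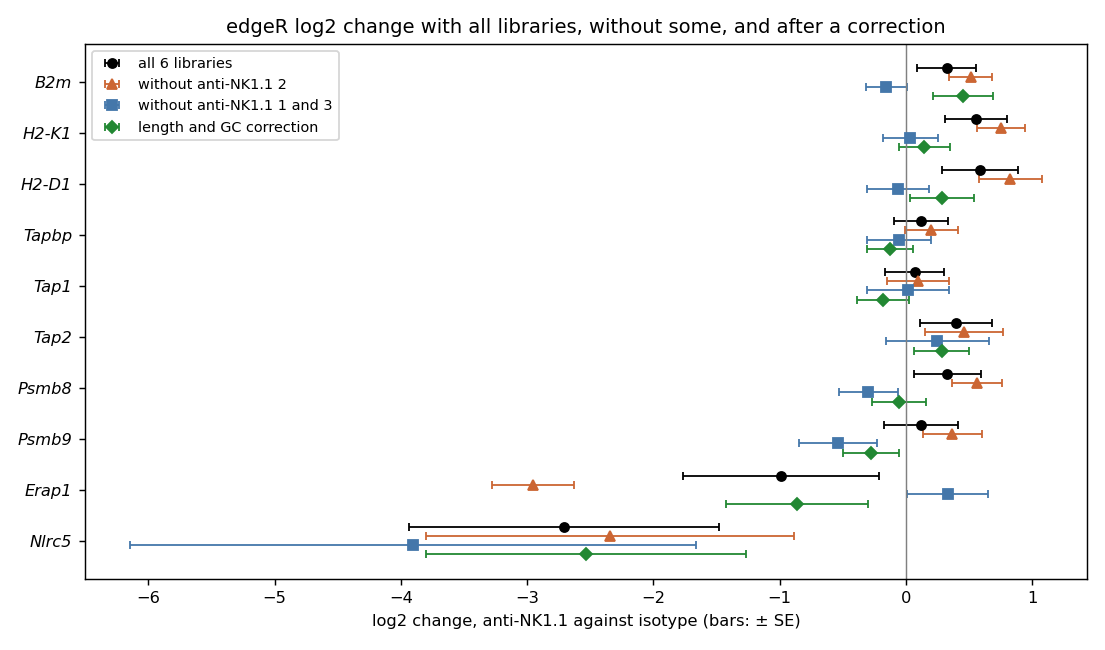
Log2 change of anti-NK1.1 against isotype (x axis) with its SE for the 10 genes (y axis), with all 6 libraries in black, without anti-NK1.1 2 in orange, with anti-NK1.1 2 as the only depleted library in blue, and after correction for transcript length and GC content in green. The orange and blue points lie on opposite sides of 0 for B2m, H2-D1, Tapbp, Psmb8, Psmb9 and Erap1, and all 4 points of Nlrc5 lie below -2.

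Other cells that a microglial sort can hold also carry class I, and their transcripts differed between libraries. NK cell markers summed to 84.1 to 130 CPM in isotype and 38.3 to 73.2 CPM in anti-NK1.1 libraries, with 6 of 7 tested genes lower. Ncr1, which was not tested, had 128, 53 and 0 counts in isotype libraries and 0 in all 3 depleted libraries. T cell markers summed to 11.7 to 25.3 CPM in isotype and 32.4 to 37.7 CPM in anti-NK1.1 libraries, with 6 of 7 higher and Cd4 at 0 in 1 library of each group. Dendritic cell markers summed to 17.2 to 33.5 and 49.25 to 62.9 CPM, with Clec9a at 0 in 2 isotype libraries and 1 depleted library. These 3 sums did not overlap between the groups. Among single tested genes, 7.73% had groups that did not overlap with anti-NK1.1 higher and 7.59% with it lower. A sum of markers does not measure how much class I RNA these cells hold.

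Endothelial markers summed to 49.6 to 59.5 CPM in isotype and 39.4 to 140 CPM in anti-NK1.1 libraries, with the lowest value in anti-NK1.1 3. Neutrophil markers summed to 68754 to 96517 CPM in isotype, to 30637 and 30957 CPM in anti-NK1.1 1 and 2 and to 135003 CPM in anti-NK1.1 3, with all 8 genes lower in log2 change. Neutrophil transcripts are thus abundant in every library. Monocyte markers summed to 4176 to 4749 CPM in isotype libraries. Their sum was 1339, 1776 and 5452 CPM in anti-NK1.1 libraries 1 to 3, with 5 of 6 genes lower, 3 of them without overlap. Border macrophage markers summed to 182 to 345 CPM in isotype and 146 to 246 CPM in anti-NK1.1 libraries. Of these 7 genes 5 were higher, and groups did not overlap for 3 higher and 1 lower. Oligodendrocyte markers summed to 291 to 399 and 747 to 876 CPM and neuronal markers to 40.8 to 142 and 189 to 582.5 CPM, with all 6 genes of each list higher. The part of these cell types in the class I values was not tested.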

How the data were processed

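The deposited table holds whole read counts per gene for 6 libraries, and its values do not look normalized. Per the labels, RNA was amplified with a SMART-seq v4 kit, made into Nextera XT libraries and sequenced on a NextSeq instrument as single 75 bp reads. The submitters' processing notes name the genome build mm10, the aligner STAR 2.5.3a, Cufflinks 2.0, DESeq2 1.1, FastQC 1.0.0 and bcl2fastq 2.20.0.422. How reads were counted, and whether by strand, is not given in the sources used here. Among the deposited counts, reads in no gene made up 53.3 to 57.4% and ambiguous reads 0.293 to 0.366%. Those 2 rows and 26 rows whose symbols had become dates were left out.

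The main test was edgeR 4.0.16 (R 4.3.3), quasi-likelihood, with TMM factors, filterByExpr and Benjamini-Hochberg adjustment over 14520 genes, 3 against 3 libraries, with no covariate and a threshold of 0.05. Alternatives used other size factors and filters, DESeq2 1.42.0, limma 3.58.1 voom with sample weights, a replicate block, offsets for transcript length and GC content, and left-out libraries. The fitting script was tested on simulated counts. Gene totals were 26893620 to 36098252 counts, so that 3 counts, the floor used here, are 0.0784 to 0.120 CPM. Positions, lengths and windows of 75 bases shared between genes come from GENCODE M21, and promoters from RefSeq. Within-library ratios used counts plus 0.5 and an exact permutation test.

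The 10 genes are named whatever their values. So are 16 fixed genes of the pathway list, any other listed gene with an unadjusted p under 0.05, and the 5 genes most like the mean of B2m, H2-K1 and H2-D1. Predicted loci and pseudogenes were passed over in choosing those 5. A named gene of the pathway list is not reported here. The members and lists were chosen with earlier results of these data known.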

Additional observations from a re-analysis of the deposited data

How the results depend on the processing

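With all 6 libraries edgeR called 0 genes (398 were higher and 552 lower at an unadjusted p under 0.05), DESeq2 83 and limma-voom 4. Leaving out 1 library at a time gave 0 to 129 called genes, 0 to 1 of the 10 members (Erap1) and 0 to 2 of the other pathway genes (Ide and Tpp2), each highest without anti-NK1.1 2. The members' median log2 change was 0.091 to 0.41 in these fits and -0.058 without anti-NK1.1 1 and 3, -0.091 with the length and GC correction and -0.099 with that correction and a replicate block. In each of the last 3 fits 4 of 10 members were higher. The median of the other pathway genes, 0.05, was 0.14 with upper-quartile factors, -0.015 with total counts, 0.0094 with voom, -0.017 without a filter, -0.032 with the length and GC correction, -0.048 with that and the block, -0.10 without anti-NK1.1 1 and 3, and -0.069 to 0.11 with 1 library left out.

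Replicate numbers did not pair the libraries: deviations of same-numbered libraries correlated at 0.0693, -0.1161 and -0.0474. The replicate block called 0 genes and 0 members, kept 8 of 10 members above 0 with a median of 0.20, left the other pathway genes at 0.05, and gave exact sign-flip p-values for the 5 ratios of 0.25 to 1.0, where 0.25 is the smallest possible.

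Signs changed for single genes as follows. Pdia3 was 0.039 with upper-quartile factors, Psmb7 -0.0032 and Calr -0.044 with total counts, and Calr -0.051 with voom. With the length and GC correction Tap1 was -0.18, Tapbp -0.13, Psmb8 -0.056, Psmb9 -0.28, Psmb10 -0.032, Psmb5 -0.26, Psmb6 -0.24, Psmb7 -0.039, Psme1 -0.14, Psme2 -0.070, Calr -0.0014, Canx 0.17 and Pdia3 0.094. With the replicate block added to that correction they were -0.18, -0.13, -0.070, -0.29, -0.040, -0.34, -0.24, -0.057, -0.12, -0.066, -0.0026, 0.17 and 0.094. Without anti-NK1.1 1 and 3 B2m was -0.15, H2-D1 -0.063, Tapbp -0.054, Erap1 0.33, Psmb8 -0.30, Psmb9 -0.54, Psmb10 -0.21, Psmb6 -0.27, Psmb7 -0.39, Psme1 -0.10, Psme2 -0.28, Canx 0.15, Pdia3 0.24 and Tapbpl 0.097, and the log2 ratio of Psmb8 to Psmb5 differed by -0.39. Leaving out 1 library gave -0.018 to 0.16 for Tap1, -0.094 to 0.061 for Calr, -0.10 to 0.26 for Psmb7, -0.15 to 0.39 for Psmb5, -0.20 to 0.046 for Pdia3, -0.11 to 0.37 for Psmb9 and -0.35 to 0.39 for the ratio of Psmb8 to Psmb5. The cause of these changes was not tested. H2-K1, Tap2 and Nlrc5 changed sign in none of the fits run, and Nlrc5 could not be tested above a mean of 5 CPM. With 4 to 12 counts per depleted library, depth limits the size of the Nlrc5 difference.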

Other observations

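Some other class I heavy chains of the H2 region were at or near 0, and others were measured at moderate levels. H2-L, a classical heavy chain of some mouse strains, stayed between 0.31 and 1.43 CPM, and H2-Q6 had 0 counts in all 6 libraries. H2-Q10, a secreted class I chain best known from liver, measured 33.7, 31.1 and 19.1 CPM in isotype and 41.4, 11.5 and 43.5 CPM in anti-NK1.1 libraries, the same order of depleted libraries as B2m. H2-K2 measured 7.56, 16.2 and 6.61 CPM in isotype and 8.13, 7.48 and 26.9 CPM in anti-NK1.1 libraries. These genes were chosen for naming after their values were seen, and reads of such similar chains may be split between them.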
